A study of Mus musculus with 24 samples.

Results

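Dbp, Tef, Hlf and Nfil3 encode transcription factors that bind the same DNA site and follow the circadian clock. All probe sets carrying 1 of these gene symbols and no other were taken from the deposited array table, which gave 8 probe sets for the 4 genes, out of 45101 probe sets and 18194 genes in all. Dbp had 2 probe sets, Tef had 3, Hlf had 2 and Nfil3 had 1, and each gene's main value comes from the probe set that averaged highest over the 24 arrays (1438211_s_at for Dbp, 1424175_at for Tef, 1434735_at for Hlf and 1418932_at for Nfil3). The groups were the distal convoluted tubule with the connecting tubule (DCT/CNT) and the cortical collecting duct (CCD), microdissected from collagenase-treated left kidneys of male C57BL/6J mice of unstated age, with no other treatment and no genetic change. Mice were kept on a cycle with 12 h light and 12 h dark phases and sampled at zeitgeber times ZT0, ZT4, ZT8, ZT12, ZT16 and ZT20, counted in hours from lights on. Each group of 1 segment and 1 time had 2 arrays, each with a pool of RNA, made from 5 animals per time. The labels do not say whether the 2 pools hold different animals, so an n of 2 below counts pools. P-values for level measure the spread between pools. Those for rhythm measure that spread together with the departure of the time means from a fitted 24 h curve.

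DBP, TEF and HLF form the PAR bZIP family, named for a proline- and acidic amino acid-rich region beside the basic leucine zipper with which they bind DNA as dimers. They activate genes that carry a D-box, and NFIL3 (also called E4BP4) represses genes through the same element. In mouse cells Dbp is driven by the clock activators CLOCK and BMAL1 at E-boxes, while Nfil3 carries elements bound by the activating ROR and the repressing REV-ERB nuclear receptors. In mouse liver and kidney the PAR bZIP proteins are known for driving genes of drug and xenobiotic metabolism.

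The promoter windows of the members are shown because the members peaked at different times of day. RefSeq (build GRCm38.p6) gave 5 windows for the 4 genes, each of 300 bases on the gene's own strand, from 250 bases before a start site to 50 after it. Both strands were searched for the E-box CACGTG, the D-box in the forms TTATGTAA and TTATGCAA, and the ROR element in the forms AAGGTCA and TAGGTCA. Capitals mark the matches. Dbp lies on chr7:45704997-45705296 (plus strand), the windows of the 2 Tef start sites on chr15:81802423-81802722 and chr15:81811164-81811463 (plus strand), Hlf on chr11:90390868-90391167 (minus strand) and Nfil3 on chr13:52980990-52981289 (minus strand).
Dbp: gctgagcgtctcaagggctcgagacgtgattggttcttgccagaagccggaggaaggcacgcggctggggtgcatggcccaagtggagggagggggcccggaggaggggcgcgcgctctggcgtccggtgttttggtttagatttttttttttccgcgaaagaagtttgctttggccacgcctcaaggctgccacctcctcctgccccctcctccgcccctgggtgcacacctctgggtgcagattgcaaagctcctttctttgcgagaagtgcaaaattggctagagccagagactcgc
Tef, first start site: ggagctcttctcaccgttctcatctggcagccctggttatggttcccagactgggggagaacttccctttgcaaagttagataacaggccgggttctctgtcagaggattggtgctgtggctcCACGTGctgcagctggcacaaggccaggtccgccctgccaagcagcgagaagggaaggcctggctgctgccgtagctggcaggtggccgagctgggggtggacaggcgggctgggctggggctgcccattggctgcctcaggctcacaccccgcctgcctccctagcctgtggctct
Tef, second start site: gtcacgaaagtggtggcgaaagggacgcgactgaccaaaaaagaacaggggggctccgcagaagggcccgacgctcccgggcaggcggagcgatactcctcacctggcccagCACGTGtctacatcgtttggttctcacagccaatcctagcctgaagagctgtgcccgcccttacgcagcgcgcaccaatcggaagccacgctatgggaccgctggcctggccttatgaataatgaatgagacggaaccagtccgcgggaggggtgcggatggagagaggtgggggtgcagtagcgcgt
Hlf: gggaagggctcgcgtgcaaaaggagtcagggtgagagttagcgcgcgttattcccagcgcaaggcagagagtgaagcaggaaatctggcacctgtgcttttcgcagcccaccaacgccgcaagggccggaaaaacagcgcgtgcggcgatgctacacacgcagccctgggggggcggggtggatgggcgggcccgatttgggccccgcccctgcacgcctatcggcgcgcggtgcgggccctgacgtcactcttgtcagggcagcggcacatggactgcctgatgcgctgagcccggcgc
Nfil3: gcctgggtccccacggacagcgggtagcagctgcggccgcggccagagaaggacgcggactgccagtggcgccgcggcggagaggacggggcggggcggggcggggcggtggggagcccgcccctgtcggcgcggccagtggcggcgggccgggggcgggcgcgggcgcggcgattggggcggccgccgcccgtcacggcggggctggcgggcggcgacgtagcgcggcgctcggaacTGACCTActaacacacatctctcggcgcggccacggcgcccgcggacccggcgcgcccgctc

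Both Tef windows held an E-box, beginning at -127 and -138 from their start sites, as did 7.15% of all 32851 promoter windows. The Nfil3 window held a ROR element, on the opposite strand and beginning at -12, as did 7.16% of all windows. The Dbp and Hlf windows held none of these letters, and no member window held a D-box, which 1.66% of all windows did. A match describes these letters only, and no match says nothing of elements elsewhere in the gene.

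Values are the log2 expression values that the authors deposited. Array medians were between 5.80 and 5.89 in DCT/CNT and between 5.83 and 5.87 in CCD, with interquartile ranges of 3.32 to 3.65 in DCT/CNT and 4.08 to 4.28 in CCD. The sodium-chloride cotransporter gene Slc12a3, which marks the DCT, had a median of 11.35 in DCT/CNT and 5.33 in CCD. It ranged from 8.48 to 12.09 on DCT/CNT arrays and from 4.48 to 6.01 on CCD arrays. The mean of 7 DCT and CNT markers was lowest at ZT8 and highest at ZT20, with 10.08 and 11.18 in DCT/CNT and 8.18 and 8.50 in CCD. Aqp2, the water channel gene of principal cells, had a median of 7.96 in DCT/CNT and 10.26 in CCD. Calb1, a CNT marker, was high in both segments (medians of 12.55 in DCT/CNT and 11.77 in CCD), and so was Umod of the thick ascending limb (11.29 in DCT/CNT and 10.12 in CCD). The mean of 12 proximal tubule markers ranged from 7.12 to 8.38 on DCT/CNT arrays and from 7.18 to 8.69 on CCD arrays, lowest at ZT8 and highest at ZT12 in DCT/CNT. The mean of 5 thick ascending limb markers ranged from 6.67 to 8.16 in DCT/CNT and from 5.99 to 7.74 in CCD. In such samples fewer cells of a type and less RNA per cell cannot be told apart.

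With limma, a cosine curve of 24 h was fitted in 1 model to the arrays of both segments. The amplitude is how far the curve rises above its own mean, in log2 units, and a gene was called rhythmic at a Benjamini-Hochberg adjusted p under 0.05 over all genes. All 4 members were called in DCT/CNT, against 6.57% of all genes, and 3 of 4 (Dbp, Tef and Nfil3) in CCD, against 2.47% of all genes. The median amplitude was 0.13 over all genes in DCT/CNT and 0.10 in CCD.

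Dbp, which encodes D site albumin promoter binding protein, had the largest amplitude of all 18194 genes in both segments. In DCT/CNT its 2 pools had log2 values of 8.45 and 7.87 at ZT0, 10.09 and 9.93 at ZT4, 11.94 and 12.09 at ZT8, 12.49 and 12.56 at ZT12, 10.98 and 10.31 at ZT16, and 8.05 and 8.30 at ZT20. In CCD they had 8.38 and 8.19 at ZT0, 11.03 and 11.21 at ZT4, 12.40 and 12.43 at ZT8, 12.72 and 12.43 at ZT12, 10.42 and 11.30 at ZT16, and 8.32 and 8.62 at ZT20. Both segments were thus low around lights on and high at ZT8 and ZT12, and the pools of these high times did not overlap with those of ZT20 or ZT0. The mean at ZT12 was 20.6-fold that at ZT0 in DCT/CNT and 19.6-fold in CCD. The pools lay furthest apart at ZT16, with an SD of 0.47 in DCT/CNT and 0.63 in CCD (n = 2 each). The fitted amplitude was 2.39 in DCT/CNT (SE 0.13, limma adjusted p = 7.01e-10) and 2.38 in CCD (SE 0.13, limma adjusted p = 7.53e-10).

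Tef, which encodes thyrotroph embryonic factor, rose later and less. Its main probe set had 8.29 and 8.43 at ZT0, 8.20 and 8.38 at ZT4, 9.34 and 9.41 at ZT8, 10.01 and 10.11 at ZT12, 9.85 and 9.72 at ZT16, and 8.59 and 9.04 at ZT20 in DCT/CNT. In CCD it had 8.77 and 8.58 at ZT0, 9.21 and 9.12 at ZT4, 9.86 and 9.85 at ZT8, 10.56 and 10.54 at ZT12, 9.96 and 10.48 at ZT16, and 9.32 and 9.35 at ZT20. Unlike Dbp, Tef was still near its maximum at ZT16 in both segments, and its low point was at ZT4 in DCT/CNT and at ZT0 in CCD. The ZT12 mean was 3.40-fold the lowest mean in DCT/CNT and 3.67-fold in CCD. The amplitude was 0.95 in DCT/CNT (SE 0.07, limma adjusted p = 5.41e-08) and 0.90 in CCD (SE 0.07, limma adjusted p = 1.05e-07), which ranked 22 in DCT/CNT and 25 in CCD among all genes.

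Hlf, which encodes hepatic leukemia factor, had the smallest amplitude of the members on its main probe set. In DCT/CNT it had 8.01 and 7.62 at ZT0, 7.07 and 7.67 at ZT4, 7.89 and 7.86 at ZT8, 9.01 and 9.35 at ZT12, 8.55 and 8.68 at ZT16, and 8.24 and 8.23 at ZT20. In CCD it had 6.95 and 6.67 at ZT0, 6.31 and 6.81 at ZT4, 7.28 and 7.62 at ZT8, 8.08 and 7.55 at ZT12, 7.10 and 7.22 at ZT16, and 6.97 and 7.12 at ZT20. The highest mean was at ZT12 and the lowest at ZT4 in both segments, 3.51-fold apart in DCT/CNT and 2.39-fold in CCD, and the pools of these times did not overlap. The amplitude was 0.76 in DCT/CNT (SE 0.12, limma adjusted p = 0.00241). In CCD it was 0.51 (SE 0.12) and did not pass (limma adjusted p = 0.0663). The proximal tubule markers were also highest at ZT12 in both segments (8.38 in DCT/CNT and 8.21 in CCD). With their mean and that of the thick ascending limb markers as covariates the amplitude was 0.54 in DCT/CNT (limma adjusted p = 0.0604) and 0.40 in CCD (limma adjusted p = 0.194). Their part in the Hlf course beyond this was not tested. The CCD call of Hlf turned with the settings, passing in 7 of its 45 alternatives, with adjusted p values between 0.0156 and 0.316 over all of them.

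Nfil3, the repressor, ran the other way. In DCT/CNT it had 8.53 and 7.92 at ZT0, 7.68 and 7.68 at ZT4, 6.31 and 6.22 at ZT8, 5.04 and 7.01 at ZT12, 7.42 and 7.69 at ZT16, and 8.49 and 7.78 at ZT20. In CCD it had 7.58 and 7.30 at ZT0, 6.33 and 7.59 at ZT4, 5.74 and 5.39 at ZT8, 5.35 and 5.85 at ZT12, 6.78 and 6.62 at ZT16, and 7.41 and 7.87 at ZT20. Nfil3 was low at ZT8 and ZT12, when Dbp was high, and high at ZT20 and ZT0. Its pools agreed less well than those of the main PAR bZIP probe sets, with an SD of 1.40 at ZT12 in DCT/CNT and 0.89 at ZT4 in CCD (n = 2 each). The amplitude was 1.18 in DCT/CNT (SE 0.19, limma adjusted p = 0.00205) and 1.13 in CCD (SE 0.19, limma adjusted p = 0.00509). Without 1 of the 2 ZT12 pools the DCT/CNT amplitude was between 0.94 and 1.33, and it passed in all 24 fits that each lacked 1 array. In CCD the call was lost when ZT8 or ZT20 was left out (adjusted p = 0.101 and 0.0513) and with an F test over group means (adjusted p = 0.124).

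**Figure D1:**
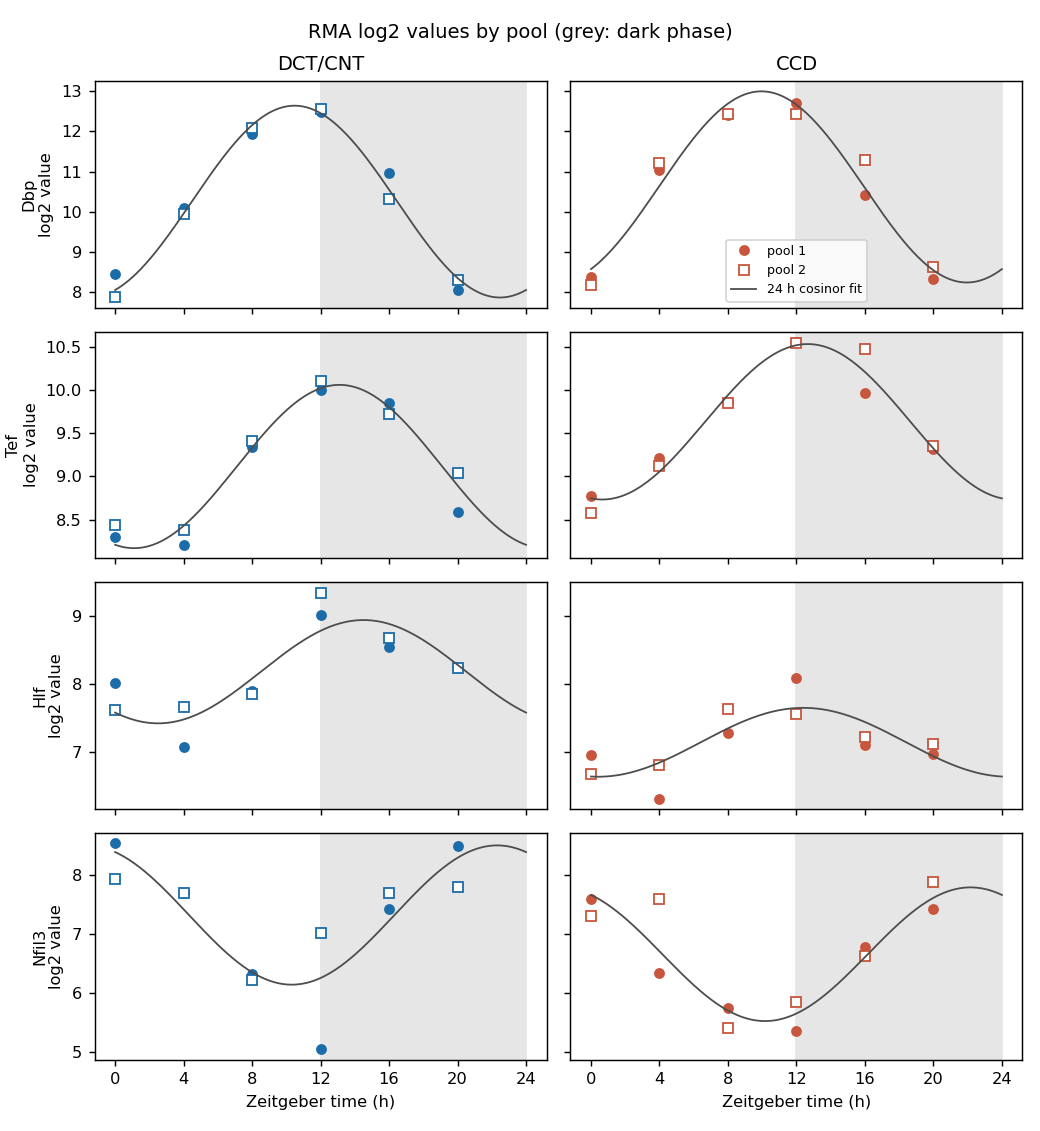
Deposited log2 values of the main probe set of each member (rows) against zeitgeber time in hours, in DCT/CNT (left) and CCD (right), with filled circles for pool 1, open squares for pool 2, the fitted 24 h curve as a line and the dark phase in grey. Dbp, Tef and Hlf have their highest mean at ZT12 in both segments, while Nfil3 is lowest at ZT8 or ZT12 and its DCT/CNT pools at ZT12 lie at 5.04 and 7.01.

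The sampled means of Dbp, Tef and Hlf were all highest at ZT12, so the order of the members rests on the flanks of the curves and on times 4 h apart. In DCT/CNT the fitted peaks were at ZT 10.5 for Dbp (SE 0.21 h), ZT 13.1 for Tef (SE 0.26 h), ZT 14.5 for Hlf (SE 0.62 h) and ZT 22.3 for Nfil3 (SE 0.61 h). In CCD they were at ZT 9.95 for Dbp (SE 0.21 h), ZT 12.7 for Tef (SE 0.28 h), ZT 12.4 for Hlf (SE 0.93 h) and ZT 22.2 for Nfil3 (SE 0.63 h).

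Dbp peaked 2.63 h before Tef in DCT/CNT (95% interval 2.09 to 3.16 h) and 2.70 h before it in CCD (2.15 to 3.26 h). Hlf followed Dbp by 4.03 h in DCT/CNT (2.65 to 5.42 h) and by 2.45 h in CCD (0.43 to 4.48 h). Tef and Hlf were 1.40 h apart in DCT/CNT (0.056 to 2.75 h) and 0.25 h apart in CCD, with an interval from -1.70 to 2.21 h that includes 0. The peaks of Dbp and Nfil3 were 11.8 h apart in both segments (10.4 to 13.3 h in DCT/CNT and 10.3 to 13.3 h in CCD). Tef and Nfil3 were 9.21 h apart in DCT/CNT (7.89 to 10.5 h) and 9.51 h apart in CCD (8.13 to 10.9 h). Hlf and Nfil3 were 7.80 h apart in DCT/CNT (6.01 to 9.60 h) and 9.76 h apart in CCD (7.45 to 12.1 h). Thus the interval includes 12 h, the opposite phase, for Dbp in both segments and for Hlf in CCD, and lies below 12 h for Tef in both segments and for Hlf in DCT/CNT. These intervals come from the SEs of the fit and the residual correlation of the 2 genes, and carry no test.

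Over the alternative settings and probe sets the Dbp peak stayed between ZT 10.3 and ZT 10.6 in DCT/CNT and between ZT 9.67 and ZT 10.5 in CCD. The Tef peak stayed between ZT 12.6 and ZT 13.6 in DCT/CNT and between ZT 12.1 and ZT 12.9 in CCD, later than every value for Dbp. The Hlf peak moved most, between ZT 13.8 and ZT 15.6 in DCT/CNT and between ZT 11.0 and ZT 13.3 in CCD.

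The other probe sets of Dbp and Tef gave like courses. After each segment's mean was subtracted, the second Dbp probe set correlated with the main one with r = 0.99 over the 24 arrays, and the 2 further Tef probe sets with r = 0.94 and 0.95, as a description of shared arrays. Their amplitudes were 2.34 in DCT/CNT and 2.31 in CCD for Dbp, and 0.82 and 0.79 in DCT/CNT and 1.04 and 0.84 in CCD for Tef. All 3 were called in both segments when every probe set was tested.

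The second Hlf probe set differed more (r = 0.90 with the main one). It had 7.11 and 6.47 at ZT0, 6.05 and 5.77 at ZT4, 6.98 and 6.46 at ZT8, 8.99 and 8.79 at ZT12, 7.60 and 7.28 at ZT16, and 7.45 and 6.80 at ZT20 in DCT/CNT. In CCD it had 6.92 and 5.92 at ZT0, 4.87 and 5.61 at ZT4, 7.59 and 7.43 at ZT8, 8.50 and 8.01 at ZT12, 6.81 and 7.37 at ZT16, and 5.69 and 6.55 at ZT20. The rise between ZT4 and ZT12 was steeper than on the main probe set, with a ZT12 mean of 7.90-fold the ZT4 mean in DCT/CNT and 8.08-fold in CCD. Its amplitudes were larger, 1.05 in DCT/CNT and 1.16 in CCD (SE 0.26 each, against 0.12 on the main probe set). Neither passed (limma adjusted p = 0.0511 in DCT/CNT and 0.0562 in CCD). The larger SE covers pool spread and also the departure of the time means from the 24 h curve. Taken over all times, the SD within a time came to 0.33 for DCT/CNT, against 0.23 on the main probe set. For CCD it came to 0.49, against 0.25. The share of each part in the failed calls was not tested.

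**Figure D2:**
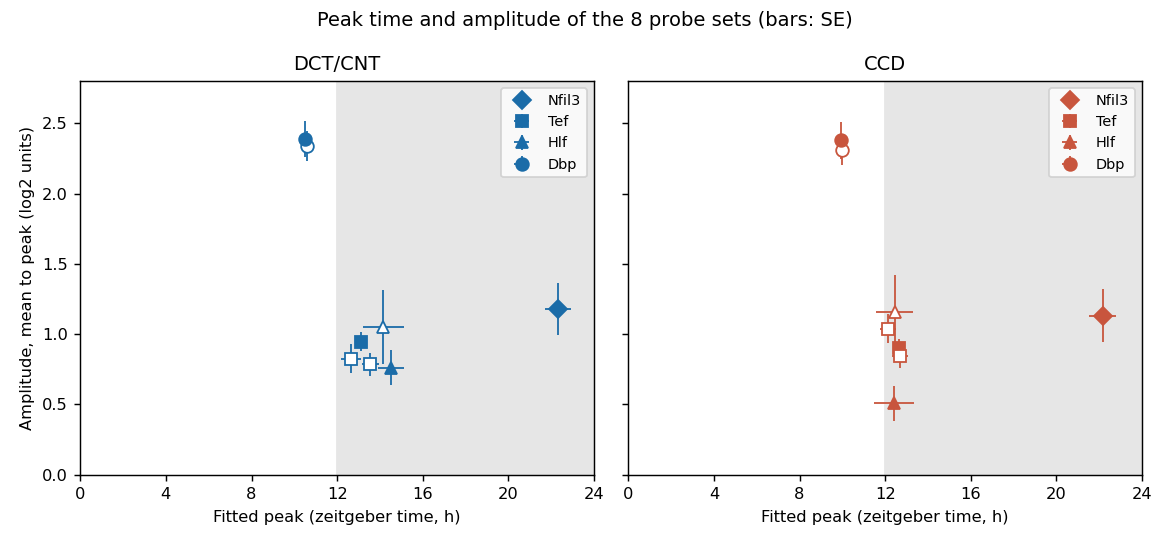
Amplitude in log2 units against the fitted peak in zeitgeber hours for the 8 probe sets in DCT/CNT (left) and CCD (right), with filled symbols for the main probe set, open symbols for the others, bars of 1 SE and the dark phase in grey. Dbp stands alone above 2.3 log2 units before lights off, Tef and Hlf lie just after lights off, and Nfil3 lies near ZT 22.

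Whether the rhythms themselves differed between the segments was tested on the 2 differences of the cosine and sine terms. No member passed (0 of 4, against 2 genes or 0.011% of all), with limma adjusted p of 0.739 for Dbp, 0.849 for Tef, 0.604 for Hlf and 0.994 for Nfil3. Unadjusted, all 4 p-values were above 0.05 too, with 0.0758 for Hlf as the lowest, while 1617 genes were below it. These p-values do not show that the rhythms were alike. DCT/CNT minus CCD, the amplitudes differed by 0.01 for Dbp (95% interval -0.37 to 0.39), 0.05 for Tef (-0.15 to 0.24), 0.25 for Hlf (-0.11 to 0.62) and 0.05 for Nfil3 (-0.50 to 0.60). The sign was negative on the second Hlf probe set (-0.11, interval -0.88 to 0.67) and on the further Tef probe sets (-0.21, interval -0.52 to 0.09, and -0.06, interval -0.30 to 0.19).

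The peak was later in DCT/CNT than in CCD by 0.52 h for Dbp (-0.09 to 1.13 h), 0.45 h for Tef (-0.35 to 1.24 h), 2.10 h for Hlf (-0.22 to 4.43 h) and 0.15 h for Nfil3 (-1.68 to 1.97 h). Each of these intervals includes 0. On the second Dbp probe set the gap was 0.63 h with an interval of 0.12 to 1.15 h that does not include 0, and without ZT4 the main probe set peaked at ZT 10.5 in both segments. The 2.10 h of Hlf is the widest gap, and it rests on a CCD course that did not pass the test of rhythm.

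The level over the whole day was compared as the average over the 6 times in DCT/CNT minus that in CCD. Hlf and Nfil3 were higher in DCT/CNT than in CCD (2 of 4 members, against 30.4% of all genes called higher), and Dbp and Tef were lower (2 of 4, against 47% called lower). Most genes of the array were thus called in this comparison, and the members' calls are not set apart by it. The median gene differed by -0.13, and the differences below are given relative to it as well. Of the called genes, 39.2% were higher in DCT/CNT in the deposited values, and 56.9%, 51.1% and 50.1% after equal medians, quantile and cyclic loess normalisation.

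Hlf averaged 8.18 in DCT/CNT and 7.14 in CCD, a difference of 1.04 (SE 0.09, 95% interval 0.84 to 1.24, limma adjusted p = 5.38e-08) or 1.17 relative to the median gene. Both DCT/CNT pools exceeded both CCD pools at 6 of 6 times on the main probe set, but at 3 of 6 on the second, where both lay below both CCD pools at 1 of 6 times (ZT8) and the difference was 0.37 (SE 0.15, adjusted p = 0.0390 over every probe set). Nfil3 averaged 7.31 in DCT/CNT and 6.65 in CCD, a difference of 0.66 (SE 0.20, 95% interval 0.24 to 1.09, limma adjusted p = 0.00671) or 0.79 relative to the median gene, with no overlap of pools at 4 of 6 times. With the proximal tubule and thick ascending limb covariates the Nfil3 difference was 0.38 and no longer passed (adjusted p = 0.303).

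Tef averaged 9.12 in DCT/CNT and 9.63 in CCD, a difference of -0.52 (SE 0.06, limma adjusted p = 2.32e-06) or -0.39 relative to the median gene, with both DCT/CNT pools below both CCD pools at 6 of 6 times. Dbp averaged 10.26 in DCT/CNT and 10.62 in CCD, a difference of -0.37 (SE 0.11, limma adjusted p = 0.00551) or -0.24 relative to the median gene, with no overlap at 3 of 6 times. These 2 calls depended on the scaling. After quantile normalisation the differences were -0.06 for Tef and -0.01 for Dbp and after cyclic loess -0.04 for Tef and 0.07 for Dbp, with adjusted p from 0.384 to 0.953. Hlf and Nfil3 were higher in DCT/CNT under each of these scalings.

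**Figure D3:**
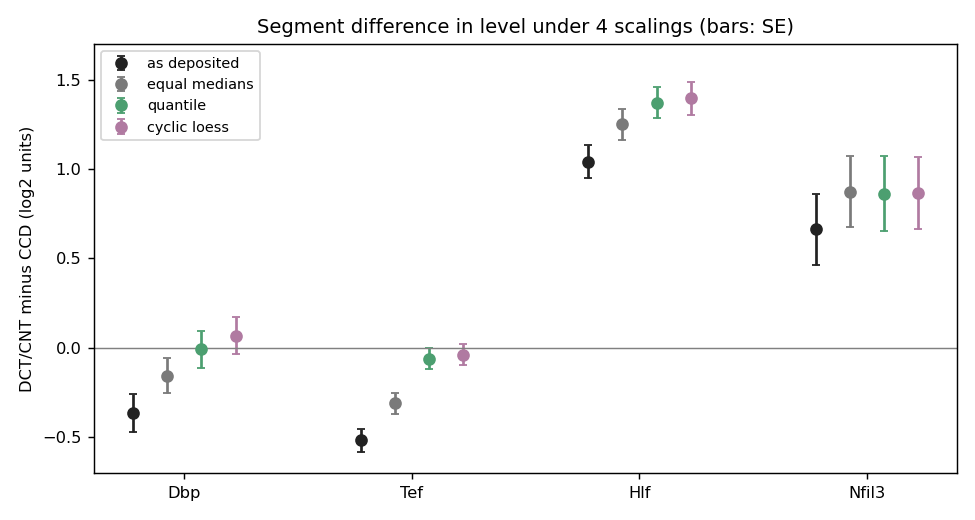
DCT/CNT minus CCD difference of the daily mean in log2 units for each member, as deposited and after 3 further scalings, with bars of 1 SE. Hlf and Nfil3 lie above 0 under all 4 scalings, while Dbp and Tef lie below 0 as deposited and close to 0 after quantile or cyclic loess normalisation, where the sign of Dbp turns.

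The clock genes that act on Dbp through E-boxes were largely rhythmic. Of 11 genes, 9 were called in DCT/CNT, against 6.57% of all genes, and 9 in CCD, against 2.47%. Their median amplitude was 0.57 in DCT/CNT and 0.71 in CCD. Arntl, which encodes BMAL1, peaked at ZT 0.871 in DCT/CNT and ZT 0.2 in CCD, and the peak of Dbp came later in both segments. Npas2, a partner of BMAL1, had the largest amplitude of this list, 1.76 in DCT/CNT (SE 0.18) and 2.17 in CCD (SE 0.18). Per3, Per2 and Cry1, whose products repress the activators, peaked later than Dbp, Per3 at ZT 13.1 in DCT/CNT and ZT 12.1 in CCD, Per2 at ZT 15.6 in DCT/CNT and ZT 15.0 in CCD, and Cry1 at ZT 19.7 in DCT/CNT and ZT 18.7 in CCD. Of the other called repressor genes, Cry2 peaked at ZT 14.0 in DCT/CNT and ZT 13.2 in CCD, Ciart at ZT 12.7 in DCT/CNT and ZT 9.76 in CCD, and Per1 at ZT 10.6 in DCT/CNT and ZT 9.75 in CCD, so that Ciart and Per1 had fitted peaks slightly before that of Dbp in CCD. The call of Ciart was missing in 6 of 24 fits that each lacked 1 array in DCT/CNT and in 5 of 24 in CCD. Clock, the partner gene of Arntl, had an amplitude of 0.55 in DCT/CNT and 0.50 in CCD.

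Of the nuclear receptor genes known to act on Nfil3, 3 of 4 measured ones were called in DCT/CNT (Nr1d1, Nr1d2 and Rora). In CCD 2 of 4 were called (Nr1d1 and Nr1d2). The shares over all genes were 6.57% in DCT/CNT and 2.47% in CCD. The REV-ERB genes Nr1d1 and Nr1d2 peaked at ZT 8.31 and ZT 10.7 in DCT/CNT and at ZT 7.77 and ZT 10.5 in CCD. The fitted trough of Nfil3 (ZT 10.3 in DCT/CNT and ZT 10.2 in CCD) lay close to the Nr1d2 peak and later than the Nr1d1 peak. Rora, an activating ROR gene, had an amplitude of 0.30 in DCT/CNT (adjusted p = 0.0377), and 4 of 24 fits that each lacked 1 array did not call it (adjusted p up to 0.115). In CCD its amplitude was 0.14 (adjusted p = 0.610).

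The other clock genes described with a ROR element, like Nfil3, were Arntl, Clock, Npas2 and Cry1. All 4 of 4 were called in each segment, against 6.57% of all genes in DCT/CNT and 2.47% in CCD. These are the same calls as in the E-box list above, which holds all 4 genes. Their median amplitude was 1.52 in DCT/CNT and 1.44 in CCD. By the fitted times above, Nfil3 peaked after Cry1 and before Arntl in both segments. The clock genes described with a D-box were Per1, Per2, Per3, Nr1d1, Nr1d2, Rora and Rorb. The Per genes also stand in the E-box list and the others in the nuclear receptor list, so their calls were already counted there. Of these 7, 6 were called in DCT/CNT, against 6.57% of all genes, and 5 in CCD, against 2.47%. Their median amplitudes were 1.26 in DCT/CNT and 1.18 in CCD. Their called peaks ranged from ZT 6.55 for Rora to ZT 15.6 for Per2 in DCT/CNT. Per1 had an amplitude of 0.49 in DCT/CNT and 0.54 in CCD and 4 of 24 fits that each lacked 1 array did not call it in either segment (adjusted p up to 0.0724 in DCT/CNT and 0.0787 in CCD).

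**Figure D4:**
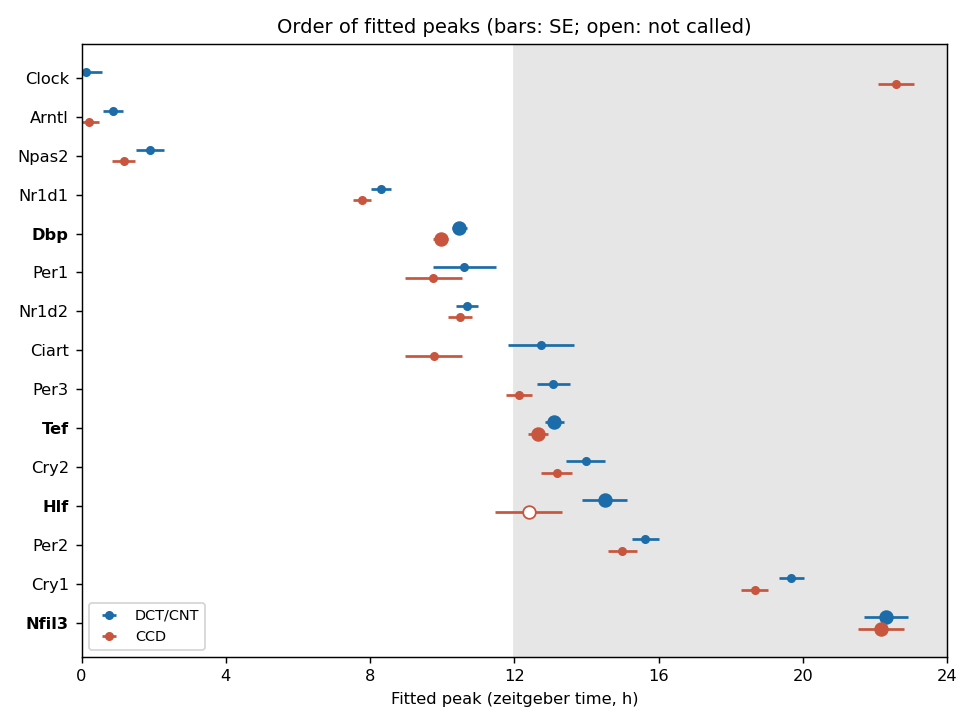
Fitted peak in zeitgeber hours, with bars of 1 SE, for the 4 members (large symbols, bold names) and the clock genes of the lists that were called in both segments, in DCT/CNT (blue) and CCD (red), ordered by the DCT/CNT peak, with open symbols where a rhythm was not called. Dbp falls beside Nr1d2 and Per1 before lights off, Tef beside Per3, Hlf between Cry2 and Per2 in DCT/CNT, and Nfil3 after Cry1.

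Of 15 measured genes described as PAR bZIP targets in mouse liver, kidney or brain, 4 were called in DCT/CNT and 2 in CCD. Over all genes 6.57% were called in DCT/CNT and 2.47% in CCD. The median amplitude of the 15 was 0.18 in DCT/CNT and 0.15 in CCD, beside 0.13 and 0.10 over all genes. All 6 calls, with Usp2 counted in both segments, peaked in the dark phase. The share of all called genes that peaked in the dark phase was not counted, so nothing is drawn from this. Usp2, a deubiquitinase gene, was called in both segments, with an amplitude of 0.59 in DCT/CNT (SE 0.09, peak ZT 14.3) and 0.67 in CCD (SE 0.09, peak ZT 13.2). Pdxk, which encodes pyridoxal kinase, peaked at ZT 17.1 in DCT/CNT (amplitude 0.18, adjusted p = 0.0225), Alas1 of haem synthesis at ZT 17.7 (amplitude 0.29, adjusted p = 0.0329), and Cyp2b10, a xenobiotic-metabolising cytochrome P450, at ZT 15.3 (amplitude 0.28, adjusted p = 0.0381). In CCD the other call was Cyp3a13 (amplitude 0.72, peak ZT 14.2, adjusted p = 0.0193). For each of these last 4 genes, 4 to 7 of 24 fits that each lacked 1 array gave no call. Nr1i3, the xenobiotic receptor CAR, had amplitudes of 0.15 in DCT/CNT and 0.23 in CCD and did not pass in either (adjusted p = 0.512 and 0.408). The C/EBP genes, bZIP relatives of the members, had 0 of 5 called by limma in DCT/CNT and in CCD. With 5 genes, 0 calls are not set apart from the shares over all genes. At an unadjusted p under 0.05 there were 2 in DCT/CNT and 0 in CCD, with no share over all genes counted at that threshold.

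The genes whose courses were most like each member's were ranked by Pearson's r over the 24 arrays after each segment's mean was subtracted, as a description of arrays that share their times. For Dbp these were Sphk2 (r = 0.997), Nr1d2 (0.97), Spint1 (0.89), Slit2 (0.88) and Fbxo3 (0.88), and the most opposed were Rilpl2 (-0.91), Lonrf3 (-0.91) and Serpinb9 (-0.90). Nr1d2 encodes REV-ERB beta. Sphk2, a sphingosine kinase gene, lies next to Dbp on chromosome 7 on the other strand, and the RefSeq gene intervals overlap by 741 bases. Its probe set 1426230_at followed Dbp (r = 0.997), while its other probe set 1417431_a_at did not (r = -0.27). Whether 1426230_at measures transcript of Dbp was not tested.

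For Tef the most alike were Coq10b (0.94), Per3 (0.93), Cry2 (0.92), Usp2 (0.91) and Tspan4 (0.91), and the most opposed were Arntl (-0.95), Npas2 (-0.92) and Cdk6 (-0.91). Per3 and Cry2 encode clock repressors and Arntl and Npas2 clock activators, while the repressor genes Per1, Per2 and Cry1 were not among the most alike. For Hlf the most alike were Bcat1 (0.85), Glul (0.84), Coq10b (0.84), Fkbp5 (0.82) and Amdhd2 (0.82), and the most opposed were Cdk6 (-0.87), Anxa5 (-0.83) and Hsd17b12 (-0.82). Coq10b and Cdk6 stood on the lists of both Tef and Hlf. Of the genes named for Hlf, Glul, Coq10b and Cdk6 were called rhythmic in both segments. Amdhd2, Anxa5 and Hsd17b12 were called in DCT/CNT only, and Bcat1 in neither (limma adjusted p = 0.0533 in DCT/CNT and 0.228 in CCD). Of 43 alternatives, the DCT/CNT call was lost in 33 for Anxa5, in 23 for Amdhd2 and in 12 for Hsd17b12. A call in 1 segment only does not test a difference between the segments. Fkbp5, which encodes a co-chaperone of the glucocorticoid receptor, had an amplitude of 0.34 in DCT/CNT (adjusted p = 0.0276) and 0.33 in CCD (adjusted p = 0.0623). Its DCT/CNT call was lost in 9 of 43 alternatives, 3 of them single-array omissions, with adjusted p up to 0.298.

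For Nfil3 the most alike were Nme5 (0.87), Timm8a1 (0.84), Qrsl1 (0.83), Adm (0.83) and Rpe (0.83), and the most opposed were the Sphk2 probe set that follows Dbp (-0.87), Spint1 (-0.86) and Dbp itself (-0.85). Of the most alike, Timm8a1 was called rhythmic in both segments, and Nme5, Qrsl1 and Rpe in DCT/CNT only. Adm was called in neither (limma adjusted p = 0.193 in DCT/CNT and 0.215 in CCD). Of 43 alternatives, the DCT/CNT call was lost in 26 for Nme5, 10 for Qrsl1, 5 for Rpe and 3 for Timm8a1. The CCD call of Timm8a1 was lost in 19 of 43. All genes ranked by likeness were picked on these same arrays, so their calls are no separate evidence of rhythm. Among the members, Tef and Hlf correlated most (r = 0.80), followed by Dbp and Tef (r = 0.76) and Dbp and Hlf (r = 0.50). Nfil3 was negatively correlated with all 3, with r = -0.85 for Dbp, -0.68 for Tef and -0.46 for Hlf.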

How the data were processed

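Oligonucleotide arrays measured RNA of 24 pools from 2 tubule segments at 6 times. The authors deposited log2 values made with RMA, per the submitters' processing notes; its version, and whether both segments were normalised in 1 run, are not given in the sources used here. Of 45101 probe sets, 34958 named 1 gene symbol, 932 several and 9211 none, and 18194 genes were each represented by their brightest probe set on average. Values were used as deposited, without a filter or batch term, in a cosinor and a group-mean model (limma 3.58.1, R 4.3.3), adjusted over all genes, and the fit was tested on simulated data. The number of arrays, not a read count, limits the precision. Named genes were the members, up to 6 called genes per pathway list by adjusted p, and per member the 5 most alike and 3 most opposed genes, leaving out predicted genes. Beyond this rule, Nr1i3 was added after its values were seen, and all called genes of the E-box list were named. Rorb, which was not called, was named as a member of its list. Members and lists were chosen with earlier results of these data known. Pools of the same time and number in the 2 segments deviated together with r between -0.03 and 0.09, so pool numbers were not taken to pair samples. Alternatives covered scaling, filtering, probe sets, variance models, blocks, covariates, and omission of arrays and times.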

Additional observations from a re-analysis of the deposited data

How the results depend on the processing

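The rhythms of Dbp and Tef in both segments and of Nfil3 in DCT/CNT passed under all alternatives run. The Hlf rhythm in DCT/CNT lost its call on the other probe set (1.05, adjusted p = 0.0511) and with the tubule marker covariates (0.54, 0.0604). In CCD the Hlf amplitude passed with genes above the median gene (0.51), the mean of probe sets (0.83), trend and robust estimation (0.51), array weights (0.53), 12 h terms (0.51) and without ZT16 (0.64). Without 1 array it was 0.41 to 0.58 and passed without DCT/CNT ZT12 replicate 2. The Nfil3 rhythm in CCD lost its call with the F test over group means (1.13) and without ZT8 (1.06) or ZT20 (1.11). The level difference of Dbp was -0.16 at equal medians, -0.0076 after quantile normalisation, 0.068 after cyclic loess, -0.38 with covariates and -0.22 without ZT4, none called. That of Tef was -0.060 after quantile normalisation and -0.038 after cyclic loess, and that of Nfil3 was 0.38 with covariates, none called. The rhythm difference vector pointed against that of the main fit for Tef without ZT4 (size 0.069, SE 0.097). For Nfil3 it did so without ZT12 (0.057, SE 0.26), CCD ZT0 replicate 2 (0.025, SE 0.27) or DCT/CNT ZT12 replicate 1 (0.21, SE 0.22). Each of these sizes was below its SE, so the direction was poorly fixed. Without 1 array the size for Nfil3 was 0.025 to 0.25. The causes were not tested.

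Genes called rhythmic in DCT/CNT numbered 1195, against 788 with array weights, 628 with covariates, 450 with the F test over group means and 226 with the segment alone. Without ZT0, ZT4, ZT8, ZT12, ZT16 or ZT20 they numbered 659, 565, 745, 594, 676 and 788, and without 1 array 818 to 1329. In CCD 449 were called, against 702 with trend and robust estimation, 846 with array weights and 117 with the F test over group means. Without each time in that order they numbered 156, 180, 132, 181, 221 and 255, and without 1 array 242 to 477. The rhythm difference called 2 genes, and 1 after quantile normalisation, 6 among genes above the median, 4 with the mean of probe sets, 4 with trend and robust estimation, 1 without ZT0, ZT8, ZT12 or ZT20, and 2 to 4 without 1 array. The level difference called 14075 genes, and 7703 among genes above the median and 25864 probe sets when each was tested. With a replicate block for pool number 1139 genes were called in DCT/CNT and 403 in CCD, and with time and pool number 1195 and 448. The Hlf adjusted p in CCD was then 0.0772 and 0.0615, and no member's call changed.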
